A study of Mus musculus with 10 samples.

Results

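Interferon beta, the chains of the type I and type II interferon receptors, the Janus kinases that act beneath them and the kinases TBK1 and IKK-epsilon were followed as 10 genes in mouse microglia exposed to lipopolysaccharide (LPS, a bacterial cell wall component). The genes were taken by symbol, and all 10 of 10 were present among the 24411 genes counted. They are Ifnb1 (the ligand), Ifnar1, Ifnar2, Ifngr1 and Ifngr2 (receptor chains), Jak1, Jak2 and Tyk2 (Janus kinases), and Tbk1 and Ikbke (the kinases that lead to interferon induction). RNA-seq counts came from 10 libraries in 4 groups, and every group, the controls included, carried 10 μM EPZ-6438, which inhibits the histone methyltransferase EZH2. Primary microglia with EPZ-6438 and LPS at 10 ng/ml for 4 h gave 3 libraries, and primary microglia with EPZ-6438 and no LPS gave 3. BV2 cells, an immortalised mouse microglial line, gave 2 libraries with EPZ-6438 and LPS and 2 with EPZ-6438 and no LPS. The primary cells were shaken off mixed glial cultures made from the pooled whole brains of 12 ICR mice 3 days old. No library without the inhibitor was analysed here, so every LPS response below is a response under EPZ-6438. Whether replicates are separate cultures is not stated in the labels, and p-values therefore cover the spread between these libraries only, which may be technical.

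LPS binds TLR4, and the TRIF branch of that receptor leads to TBK1 and its relative IKK-epsilon, which phosphorylate IRF3 so that interferon beta is transcribed. Secreted interferon beta binds the IFNAR1 and IFNAR2 chains, and the kinases TYK2 and JAK1 bound to those chains phosphorylate STAT proteins, which turn on interferon-stimulated genes. Interferon gamma uses the IFNGR1 and IFNGR2 chains with JAK1 and JAK2, and microglia are a brain cell type known to respond to both classes of interferon.

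The libraries held 2.75 to 3.68 M reads assigned to genes, and 70.4 to 79.5% of reads named no gene. A count of 3 reads was used below as the upper limit where no read was seen. It equalled 0.814 to 1.09 counts per M counts (CPM) in a single library before the scaling used for the levels below. Such limits cover counting error only. Ribosomal transcript Rn45s took 43.7% of counts in replicate 1 of the primary microglia with LPS, against 15.73 and 15.99% in the other replicates of that group, and it took 50.3, 51.7 and 40.9% in the primary microglia without LPS. This share thus moved with LPS in primary microglia apart from replicate 1. Leaving out 5 structural RNA genes, Rn45s among them, changed no call of a member that could be tested. Any other part of this share in the LPS results was not tested. Replicate 1 of the primary microglia with LPS stood apart from its group, and calls of the 10 genes that change without it are given with that change. Of 15 microglial markers, 15 had reads in primary microglia and 13 in BV2 cells, where Sall1 and Gpr34 were at 0. Tmem119 went the other way, with 18 reads in primary microglia with LPS and 20 without it (3 libraries each). In BV2 cells it had 68 and 98 reads (2 libraries each). Some markers thus had few reads in primary microglia. Microglial markers summed to 2307 to 2481 CPM in primary microglia with LPS and 2453 to 2703 without it. In BV2 cells they summed to 1693 to 1797 CPM with LPS and 1667 to 1771 without it. Of 8 astrocyte markers, 8 had reads in primary microglia, with summed levels of 867 to 1548 CPM with LPS and 849 to 1408 without it, whereas in BV2 cells the sums were 37.9 to 41.5 with LPS and 41.5 to 42.9 without it, and Gfap was at 0. Of 10 lymphocyte and plasmacytoid dendritic cell markers, Ms4a1, Cd8a, Siglech and Ly6d were among those at 0 in all 10 libraries. The list summed to 394 to 450 CPM in primary microglia with LPS and 201 to 209 CPM without it. It holds Bst2, also counted below among the interferon-stimulated genes, with a mean of 220 CPM in primary microglia with LPS and 28.8 CPM without it. The part of this list in the LPS results was not tested. In bulk RNA, fewer cells of a type and less RNA per cell cannot be told apart. Over all primary libraries, markers of the oligodendrocyte lineage summed to 128 to 179 CPM, of neurons to 80.1 to 95.3 CPM and of vascular cells and fibroblasts to 57.0 to 161 CPM, whereas in BV2 cells these lists reached at most 1.24, 0 and 1.34 CPM. Markers of neutrophils, monocytes and border macrophages summed to 48.4 to 80.9 CPM in primary microglia with LPS and 43.2 to 53.4 without it. In BV2 cells they summed to 9.71 to 13.2 CPM with LPS and 18.0 to 20.1 without it. The part of RNA from these other cells in the LPS results and in the comparisons of primary microglia with BV2 cells was not tested.

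Levels are given in CPM after scaling of the libraries, and log2 fold changes with the SE of the fit. Adjusted p-values are from edgeR's quasi-likelihood test with Benjamini-Hochberg adjustment over all genes tested, and calls were made below an adjusted p of 0.05.

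In primary microglia, LPS raised 8 of the 10 genes and lowered 0. Ifnb1, counted among these, had no read without LPS and was present in every LPS library. It passed the low-count filter only through those libraries, so its call was fixed in advance. Jak2 and Ikbke rose 15.7-fold and 14.8-fold, and both type I receptor chains, Ifngr2, Tyk2 and Tbk1 rose by log2 fold changes between 0.86 and 1.23. Ifngr1 and Jak1 were not called. Over all 10664 genes tested, 21.4% were called higher and 17.8% lower. The median log2 fold change of the 10 genes, with Ifnb1 set at its lower bound, was 1.07, beside -0.03 over all genes. With Ifnb1 left out, the middle value was that of Tbk1, at 0.98.

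Ifnb1 (chr4:88522025-88522774, minus strand, mm10, a gene with 1 exon) encodes interferon beta. It had 10.9, 12.1 and 11.3 CPM in primary microglia with LPS, from 28, 38 and 40 reads, against 0, 0 and 0 reads without LPS. The groups did not overlap, and the level was at least 30.4-fold higher with LPS when the control group was set at 3 counts in all. Because the gene passed the low-count filter only through its LPS libraries, it had to differ, and no p is given. In BV2 cells it had 1 read and 0 reads with LPS, and 0 and 0 reads without LPS, too few for a test. The 20 other interferon genes searched, among them Ifng, the alpha interferons, Ifnl2 and Ifnl3, had 0 assigned reads in all 10 libraries. Ifnb1 was thus the only interferon gene searched that had assigned reads. Reads that mapped to more than 1 place, 7.64 to 11.85% of reads, were assigned to no gene. Any reads shared by interferon genes of like sequence would therefore not be counted.

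The Ifnb1 promoter is well known for adjoining sites for IRF proteins and NF-kB, and it is shown beside the promoters of Ikbke and Jak2, the members with the largest called folds that could be estimated. Each is the 250 bases before the RefSeq gene start on the GRCm38.p6 build, printed along the gene's strand: Ifnb1 at chr4:88522795-88523044 (minus), Ikbke at chr1:131279564-131279813 (minus) and Jak2 at chr19:29251553-29251802 (plus). Capitals mark matches, on either strand, to GGGANNNNCC (an NF-kB-like motif), GAAANNGAAA (a motif of interferon-stimulated response elements), AANNGAAA (an IRF core) and TTCNNNGAA (a STAT motif, GAS).
Ifnb1: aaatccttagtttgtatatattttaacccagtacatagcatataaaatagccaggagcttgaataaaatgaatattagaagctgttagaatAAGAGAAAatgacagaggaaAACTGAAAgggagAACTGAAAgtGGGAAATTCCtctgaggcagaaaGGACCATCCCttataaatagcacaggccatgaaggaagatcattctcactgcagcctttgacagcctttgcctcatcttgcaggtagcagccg
Ikbke: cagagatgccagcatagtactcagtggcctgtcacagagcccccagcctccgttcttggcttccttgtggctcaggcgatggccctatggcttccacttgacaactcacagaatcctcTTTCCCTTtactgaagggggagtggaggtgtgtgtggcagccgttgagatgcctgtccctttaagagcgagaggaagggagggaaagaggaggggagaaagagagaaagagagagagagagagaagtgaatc
Jak2: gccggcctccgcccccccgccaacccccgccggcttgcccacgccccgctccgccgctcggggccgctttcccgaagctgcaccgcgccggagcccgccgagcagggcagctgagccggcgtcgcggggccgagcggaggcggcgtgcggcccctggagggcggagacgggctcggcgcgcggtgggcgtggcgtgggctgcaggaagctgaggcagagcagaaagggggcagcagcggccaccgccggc

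The Ifnb1 window held 3 matches to the IRF core, starting at -159, -139 and -126, and 2 to the NF-kB-like motif, starting at -116 and, on the opposite strand, at -93. The Ikbke window held 1 match, to the IRF core on the opposite strand at -132, and the Jak2 window held 0. Across the 10 genes, 3 windows matched the NF-kB-like motif (Ifnb1, Ifngr2 and Tyk2), 2 the IRF core, 1 the GAS motif (Ifnar2) and 0 the response element. Of 27025 mouse promoter windows of the same length, 17.3% held the NF-kB-like motif, 21.6% the IRF core, 7.18% the GAS motif and 3.04% the response element. A match is a description of letters, not evidence of a bound site, and any IRF response element also matches the IRF core.

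Ifnar1 (chr16:91485238-91507441, plus strand), whose product carries TYK2, had 314, 326 and 353 CPM in primary microglia with LPS, against 151, 137 and 154 CPM without it. All LPS libraries lay above all controls, a log2 fold change of 1.16 ± 0.11 (SE, adjusted p = 7.27e-08). In BV2 cells it had 103 and 92.5 CPM with LPS, against 90.2 and 82.1 CPM without it, groups that did not overlap but differed by only 0.22 ± 0.14 (adjusted p = 0.591). Ifnar2 (chr16:91372783-91405589, plus strand), whose product carries JAK1, had 112, 120 and 106 CPM in primary microglia with LPS, against 63.9, 55.9 and 58.6 CPM without it. The groups again stood apart, by 0.91 ± 0.12 (adjusted p = 6.85e-06). In BV2 cells Ifnar2 had 37.2 and 28.1 CPM with LPS, against 33.6 and 37.9 CPM without it, which overlapped (-0.10 ± 0.20, adjusted p = 0.897). Ifnar1 exceeded Ifnar2 per kb of transcript in every library, by 2.30 ± 0.256 times in primary microglia with LPS and 1.93 ± 0.111 times without it (SD, n = 3 each).

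Of the chains of the interferon gamma receptor, 1 was called in primary microglia. Ifngr2 (chr16:91547072-91565623, plus strand), the chain that carries JAK2, had 175, 207 and 210.4 CPM in primary microglia with LPS, against 102, 105 and 116 CPM without it. Every LPS library was higher, by 0.86 ± 0.12 on the log2 scale (adjusted p = 9.16e-06). In BV2 cells it had 151 and 146 CPM with LPS, against 123 and 103 CPM without it. These did not overlap, and the difference of 0.43 ± 0.14 was not called (adjusted p = 0.124). Ifngr1 (chr10:19591949-19610229, plus strand), the chain that binds interferon gamma, had 49.2, 57.0 and 57.4 CPM in primary microglia with LPS, against 41.1, 37.5 and 52.3 CPM without it, and the groups overlapped (0.31 ± 0.15, adjusted p = 0.114). Without LPS replicate 1 the same comparison was called, with 0.38 on the log2 scale (adjusted p = 0.0212), and without control replicate 3 it was also called, with 0.46 (adjusted p = 0.0398). In BV2 cells Ifngr1 had 35.5 and 38.8 CPM with LPS, against 34.5 and 35.6 CPM without it, and these overlapped (0.12 ± 0.18, adjusted p = 0.866).

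**Figure D1:**
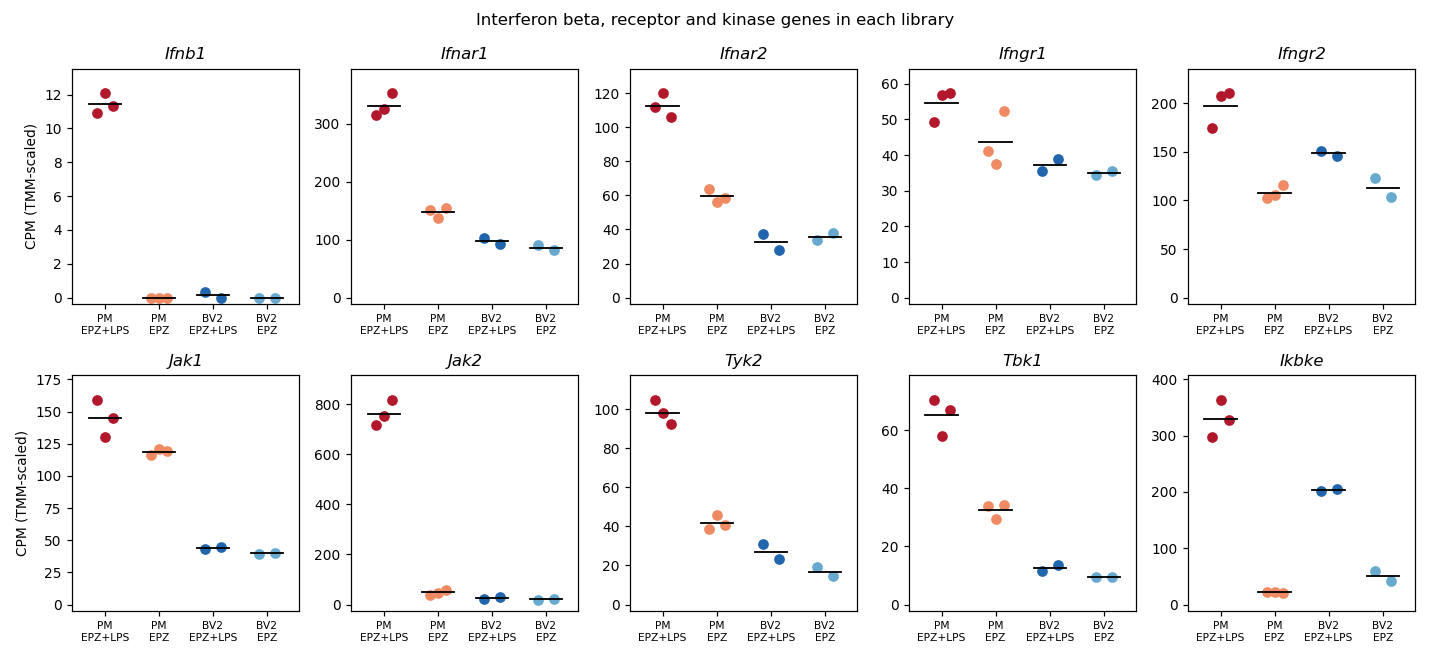
Levels of each of the 10 genes in CPM in every library (points) with group means (bars), each panel starting at 0 CPM and with its own scale, for primary microglia (PM) with and without LPS and BV2 cells with and without LPS, all under EPZ-6438 (EPZ). Jak2 lay between 718 and 817 CPM in primary microglia with LPS and at or below 56.9 CPM in every other library, whereas Ikbke was above its controls with LPS in both cells.

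Among the Janus kinases, LPS in primary microglia moved Jak2 far more than the other two. Jak2 (chr19:29251828-29313080, plus strand), which serves the interferon gamma receptor and several cytokine receptors, had 719, 752 and 817 CPM in primary microglia with LPS, against 40.0, 47.8 and 56.9 CPM without it. The lowest LPS library was far above the highest control, and the log2 fold change was 3.97 ± 0.14 (adjusted p = 1.79e-14). In BV2 cells Jak2 had 22.1 and 30.6 CPM with LPS, against 19.0 and 24.1 CPM without it, and these overlapped (0.34 ± 0.24, adjusted p = 0.621). Tyk2 (chr9:21104068-21131243, minus strand), which serves the type I receptor, had 105, 98.0 and 92.2 CPM in primary microglia with LPS, against 38.5, 45.7 and 40.7 CPM without it. It rose by 1.23 ± 0.13 on the log2 scale, with no overlap (adjusted p = 2.89e-07). In BV2 cells Tyk2 had 30.8 and 23.3 CPM with LPS, against 19.3 and 14.5 CPM without it. These did not overlap, and the fitted difference of 0.70 ± 0.23 was not called (adjusted p = 0.141).

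Jak1 (chr4:101152367-101265282, minus strand), which serves both interferon receptors, had 159, 130.2 and 145 CPM in primary microglia with LPS, against 116, 121 and 119 CPM without it. The groups did not overlap, but the difference of 0.27 ± 0.12 was not called (adjusted p = 0.072), and it was called without LPS replicate 2, with 0.36 (adjusted p = 0.041). In BV2 cells Jak1 had 43.2 and 44.7 CPM with LPS, against 39.5 and 39.9 CPM without it, with no overlap but no call (0.18 ± 0.17, adjusted p = 0.739). Exons of Jak1 overlap those of Raver2 on the opposite strand, and the counts used were those of the reverse-strand column.

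Expressed per kb of the longest transcript, Jak2 made up 75.2 ± 2.36% of the summed Jak1, Jak2 and Tyk2 level in primary microglia with LPS and 22.5 ± 2.89% without it (SD, n = 3 each). Jak1 made up 14.7 ± 1.58% with LPS and 57.1 ± 2.40% without it, so the leading Janus kinase transcript of the 3 differed between the groups in every library. In BV2 cells Jak2 made up 26.4 ± 5.63% with LPS and 26.9 ± 4.39% without it, and Jak1 led in both groups, with 45.2 ± 0.357% and 51.0 ± 0.121% (SD, n = 2 each). These shares restate the levels above as a balance within each library and were given no test of their own.

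**Figure D2:**
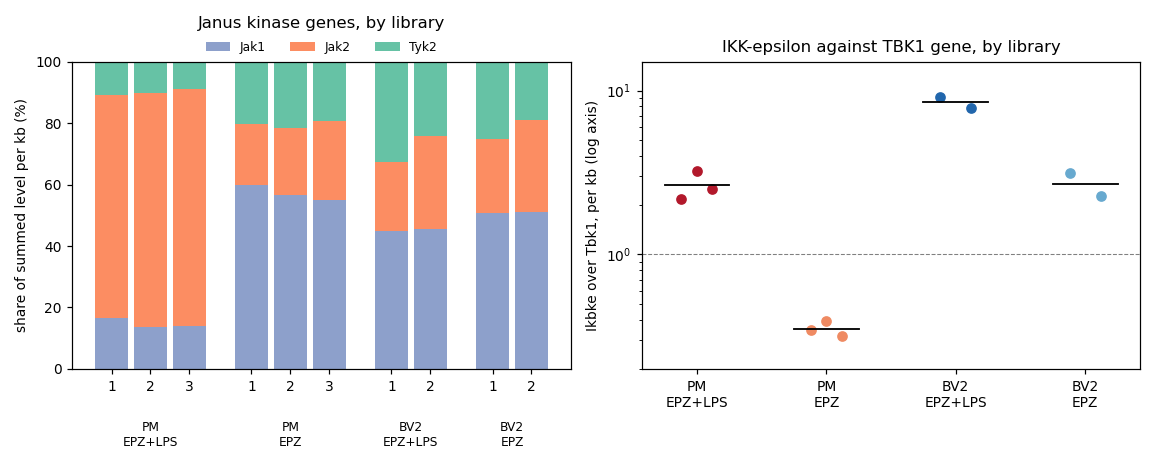
Left, share in percent of Jak1, Jak2 and Tyk2 in their summed level per kb, 1 stacked bar per library; right, ratio of Ikbke to Tbk1 per kb on a log axis, with a point per library, a bar at the group mean and a dashed line at equality. Jak2 held at least 72.5% of the Janus kinase level in each primary microglial library with LPS and at most 30.4% in every other library, and Ikbke lay below Tbk1 only in primary microglia without LPS.

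The kinases that lead to interferon induction both rose in primary microglia, by different amounts. Ikbke (chr1:131254343-131279606, minus strand), which encodes the inducible kinase IKK-epsilon, had 298, 363 and 327 CPM in primary microglia with LPS, against 22.8, 22.5 and 21.1 CPM without it. No library overlapped, and the log2 fold change was 3.88 ± 0.14 (adjusted p = 2.02e-14). In BV2 cells Ikbke had 202 and 205 CPM with LPS, against 58.8 and 41.9 CPM without it, a rise of 2.05 ± 0.16, or 4.13-fold (adjusted p = 6.53e-06). Tbk1 (chr10:121546455-121586787, minus strand), which encodes the constitutive kinase of the pair, had 70.3, 57.9 and 67.01 CPM in primary microglia with LPS, against 34.0, 29.4 and 34.4 CPM without it. All LPS libraries were higher, by 0.98 ± 0.14 (adjusted p = 1.77e-05). In BV2 cells Tbk1 had 11.4 and 13.5 CPM with LPS, against 9.64 and 9.56 CPM without it; the groups did not overlap, but the difference of 0.41 ± 0.27 was not called (adjusted p = 0.581).

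Per kb, Ikbke stood at 2.65 ± 0.536 times Tbk1 in primary microglia with LPS and at 0.352 ± 0.0395 times without it (SD, n = 3 each). In BV2 cells the ratio was 8.49 ± 0.927 with LPS and 2.71 ± 0.627 without it (SD, n = 2 each), so Ikbke exceeded Tbk1 in the resting line as well.

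In BV2 cells, LPS thus raised 1 of the 9 genes that could be tested, Ikbke, and lowered 0. Over the 9321 genes tested there, 3.69% were called higher and 1.51% lower, so few genes of any kind were called in this comparison of 2 libraries with 2. The median log2 fold change of the 9 genes was 0.34, beside -0.01 over all genes. Ifngr2 was also called without the second LPS library (adjusted p = 0.0253), as was Tyk2 (adjusted p = 0.00915), which makes 3 genes.

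**Figure D3:**
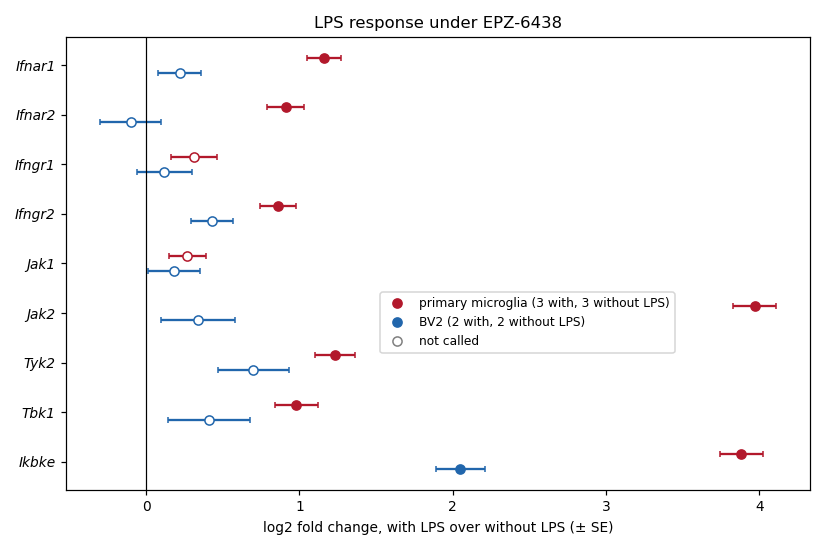
Log2 fold change with LPS over without LPS (± SE) for each gene in primary microglia and in BV2 cells, with filled points for genes called at an adjusted p under 0.05 and open points for the others; Ifnb1 is left out because its controls had no reads. Jak2 and Ikbke lay near 4 in primary microglia, whereas in BV2 cells only Ikbke, at 2.05, was called.

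A single model over all 4 groups tested whether the LPS response itself differed between the cells. It was larger in primary microglia than in BV2 cells for 4 of the 9 genes with a usable value. The difference of log2 fold changes was 3.68 ± 0.26 for Jak2 (adjusted p = 1.25e-11), 1.89 ± 0.22 for Ikbke (adjusted p = 2.4e-07), 1.06 ± 0.23 for Ifnar2 (adjusted p = 0.00134) and 0.98 ± 0.19 for Ifnar1 (adjusted p = 0.00031). Over 11626 genes, 8.65% had a response called higher in primary microglia and 3.54% lower, and the median difference was 0.61 for the 9 genes, beside 0.04 over all genes. For Tbk1 (0.61 ± 0.29, adjusted p = 0.214), Tyk2 (0.57 ± 0.26, adjusted p = 0.176) and Ifngr2 (0.48 ± 0.19, adjusted p = 0.112) no difference was called, although these genes were called in primary microglia alone. Ifngr1 and Jak1 had differences of 0.24 ± 0.24 (adjusted p = 0.667) and 0.14 ± 0.20 (adjusted p = 0.819). Ifnb1 gave no usable difference, with 1 read in all BV2 libraries.

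Without LPS, 6 of 9 genes were higher in primary microglia than in BV2 cells and 1 was lower, among 41.5% of all genes called higher and 32.5% lower. The higher ones were Tbk1 (1.76 ± 0.21, adjusted p = 3.25e-08), Jak1 (1.58 ± 0.15, adjusted p = 3.19e-10), Tyk2 (1.29 ± 0.19, adjusted p = 1.09e-06), Jak2 (1.17 ± 0.19, adjusted p = 3.21e-06), Ifnar1 (0.77 ± 0.13, adjusted p = 1.11e-05) and Ifnar2 (0.73 ± 0.16, adjusted p = 0.000223). Ikbke was the exception, at 22.1 ± 0.919 CPM in primary microglia (SD, n = 3) and 50.3 ± 12.0 CPM in BV2 cells (SD, n = 2), a log2 difference of -1.19 ± 0.17 (adjusted p = 6.52e-07). The interferon gamma receptor chains were not called, with 0.32 ± 0.17 for Ifngr1 (adjusted p = 0.097) and -0.07 ± 0.14 for Ifngr2 (adjusted p = 0.663). Ifngr1 was called as higher in primary microglia without their control replicate 2 (0.43, adjusted p = 0.0494), without their LPS replicate 1 (0.38, adjusted p = 0.0375) and in a fit of the 2 groups alone (0.33, adjusted p = 0.0467). The median of the 9 genes was 0.77, beside 0.23 over all genes. Ifnb1 had no read in either group.

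With LPS, 10 of 10 genes were higher in primary microglia than in BV2 cells, among 43.1% of all genes called higher and 30.7% lower. Ifnb1 had 106 reads against 1, a ratio of 75.1 with a 95% counting interval of 13.2 to 2994. It passed the low-count filter only through primary microglia with LPS, so its call among the 10 was fixed in advance. Apart from Ifnb1, the log2 differences ran from 0.41 ± 0.13 for Ifngr2 (adjusted p = 0.00747) to 4.84 ± 0.18 for Jak2 (adjusted p = 1.21e-18). The median of the 10 genes, with Ifnb1 taken at the ratio of its mean levels, was 1.77, beside 0.29 over all genes. Ikbke, lower in primary microglia than in BV2 cells without LPS, was higher there with it, by 0.70 ± 0.14 (adjusted p = 5.4e-05). The levels of Ikbke therefore ran from primary microglia with LPS, through BV2 cells with LPS and BV2 cells without it, to primary microglia without LPS, and each step in that order was called. For Ifngr2, fitted on the 2 groups alone, the call was lost (0.35 ± 0.16, adjusted p = 0.0605).

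The order of the genes also differed between groups when levels were compared per kb of transcript. In primary microglia with LPS, Jak2 stood first at 152 ± 9.98 CPM per kb, followed by Ifnar1 at 84.6 ± 5.06 and Ikbke at 56.3 ± 5.56 (SD, n = 3). In primary microglia without LPS, Ifnar1 stood first at 37.7 ± 2.38 CPM per kb, and Jak2 and Ikbke stood at 9.58 and 3.77. In BV2 cells with LPS, Ifngr2 stood first at 40.1 ± 0.994 CPM per kb, followed by Ikbke at 34.7 ± 0.362 (SD, n = 2). In BV2 cells without LPS, Ifngr2 also stood first, at 30.5 ± 3.63 CPM per kb, and Ifnar1 followed at 22.04 ± 1.47. The lowest members in BV2 cells without LPS were Tyk2 at 3.50 and Tbk1 at 3.18 CPM per kb, apart from Ifnb1 at 0.

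**Figure D4:**
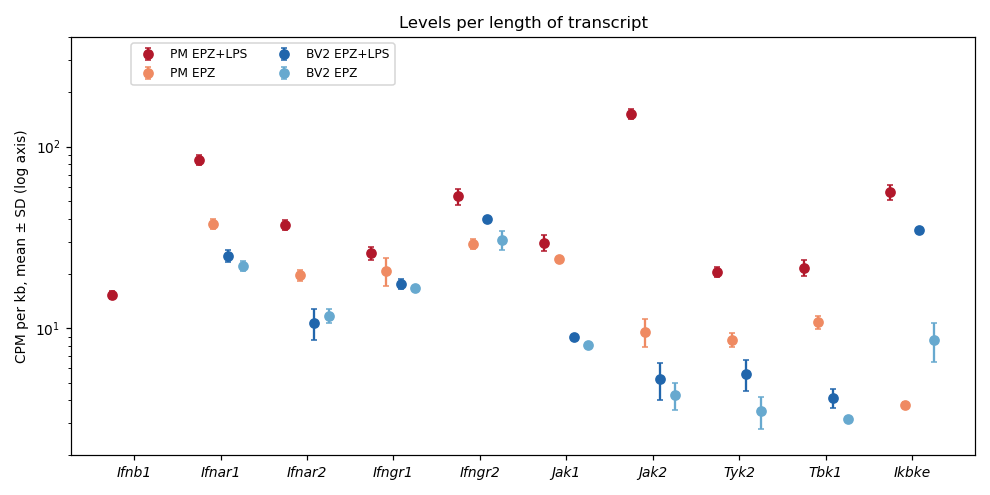
Mean level of each gene in CPM per kb of its longest transcript (log axis, error bars SD) in the 4 groups; groups with a mean under the axis are not drawn, which leaves Ifnb1 with 1 point. Jak2 and Ikbke were the genes whose place among the others differed most with LPS in primary microglia; Jak2 stood at 152 CPM per kb with LPS, against 9.58 without it.

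Genes before and after these 10 steps were described from lists of the pathway. Counts and medians are over the list genes that passed the low-count filter, and a gene that passed it only through the group where it is high had to differ. For LPS in primary microglia this held for Irf7, Zbp1, Socs1 and Usp18, with 12, 19, 11 and 18 reads over the 3 control libraries. For LPS in primary microglia the counts stand beside 21.4% of all genes called higher and 17.8% lower, and in BV2 cells beside 3.69% and 1.51%. For the difference of responses they stand beside 8.65% called higher in primary microglia and 3.54% lower. On the route from TLR4 to TBK1, LPS in primary microglia raised 9 and lowered 1 of 19 genes (median log2 fold change 0.56), and in BV2 cells it raised 3 and lowered 0 of 15 (median 0.20). Irf7, a transcription factor that amplifies interferon induction, rose by 8.33 ± 0.23 in primary microglia, and Cd14, the LPS co-receptor, rose by 3.42 ± 0.13 there and by 1.19 ± 0.11 in BV2 cells. Tlr4, the LPS receptor, was not called in either cell, with -0.14 ± 0.19 in primary microglia (adjusted p = 0.593) and -0.89 ± 0.27 in BV2 cells (adjusted p = 0.0948). Ticam1, which encodes TRIF, had 0.26 ± 0.24 in primary microglia (adjusted p = 0.433) and 1.05 ± 0.29 in BV2 cells (adjusted p = 0.0574). Irf3, the substrate of TBK1, had 0.02 ± 0.17 in primary microglia (adjusted p = 0.942) and 0.20 ± 0.21 in BV2 cells (adjusted p = 0.794). The response was called larger in primary microglia for 7 of the 19 genes and smaller for 0, with the lowest p for Irf7 (7.59 ± 0.42), Irf5 (2.63 ± 0.20) and Cd14 (2.28 ± 0.18).

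Cytosolic sensors of nucleic acids also lead to TBK1. LPS in primary microglia raised 8 and lowered 3 of the 11 genes of that list (median 2.26), with the lowest p for Nlrc5 (4.77 ± 0.14), Dhx58 (4.57 ± 0.19) and Zbp1 (6.08 ± 0.25). In BV2 cells 0 of 7 tested genes were called in either direction (median -0.04), a count that the low share of calls over all genes would also give, and Ddx58, Ifih1, Zbp1 and Nlrx1 had too few reads to be tested. The difference itself was called for 6 of the 11, 5 with a larger and 1 with a smaller log2 fold change in primary microglia; over the alternatives the larger calls numbered 3 to 8, and the smaller one was lost in 6 of 16.

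Of the STAT and IRF effectors beneath the receptors, LPS in primary microglia raised 7 and lowered 1 of 10 tested (median 1.90). Stat2 rose by 4.04 ± 0.16 (adjusted p = 1.16e-13) and Irf9 by 2.45 ± 0.14 (adjusted p = 2.45e-11), both of which act beneath the type I receptor, and Irf1 rose by 5.44 ± 0.15. In BV2 cells 3 rose and 1 fell of 10 (median 0.16): Irf9 rose by 1.44 ± 0.26 (adjusted p = 0.00489) and Irf1 by 1.73 ± 0.21, whereas Stat2 (0.50 ± 0.33, adjusted p = 0.587) was not called. The response was larger in primary microglia for 6 of 10 and smaller for 0, among them Stat2 (3.58 ± 0.37) and Irf9 (1.06 ± 0.29, adjusted p = 0.0123).

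Of the genes that restrain the receptor and Janus kinase step, LPS in primary microglia raised 9 and lowered 2 of 18 (median 0.57), among them Usp18, whose product binds IFNAR2 and blocks signalling (7.70 ± 0.19), and the Janus kinase inhibitors Socs3 (5.11 ± 0.19) and Socs1 (5.98 ± 0.27). In BV2 cells 3 rose and 0 fell of 15 (median 0.22). These were Socs3 (5.58 ± 0.37), Isg15 (2.38 ± 0.36) and Usp18 (1.54 ± 0.32). The difference between cells was called for 6 of the 18, all larger in primary microglia, among them Isg15 at 6.94 ± 0.69 and Usp18 at 6.20 ± 0.44, and for Socs3 it was -0.42 ± 0.55 (adjusted p = 0.775). Socs1 had 4 reads in BV2 cells with LPS and 0 without it, too few to compare.

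Interferon-stimulated genes stood at the far end of the route. LPS in primary microglia raised 21 of 21 tested (median 8.27, or 8.33 with genes absent from a group set at their bound). Among them were Rsad2, an antiviral enzyme, at 4200 ± 463 CPM with LPS and 0.884 ± 0.450 CPM without it, and Ifit2 at 2610 ± 294 and 8.54 ± 2.03 CPM (SD, n = 3 each). Rsad2 and many others of the 21 passed the low-count filter only through their LPS libraries, so their calls were fixed in advance. Without LPS, Rsad2 had 7 reads over 3 libraries, Ifit1 had 1 and Cxcl10 had 0. In BV2 cells 9 of 16 tested rose and 0 fell (median 1.61). Rsad2 had 25.4 and 34.6 CPM in BV2 cells with LPS, against 4.67 and 5.93 CPM without it. The chemokine gene Cxcl10 had 86.0 and 96.4 CPM with LPS, against 1.24 and 1.65 CPM without it. The response was called larger in primary microglia for 17 of the 21 and smaller for 0. However, 7 of the 21 had 3 or fewer reads in a group and gave no usable size of the difference. Some of the 17 calls are of these 7 genes and so rest on a group near 0. Of 15 genes typical of interferon gamma, such as the guanylate-binding proteins, 12 could be tested in primary microglia, where 12 rose (median 6.63). In BV2 cells 6 could be tested, and 5 rose (median 1.55). Ciita, H2-Aa and H2-Ab1 had too few reads in both cells. Several of the 12, such as Gbp5 with 6 reads without LPS, also passed the filter only through LPS libraries and had to differ. The response was called larger in primary microglia for 5 genes of this list and smaller for 0, and 7 gave no usable difference. Ifng itself had 0 reads in these libraries. Both lists are known to respond to type I interferon and, in part, to NF-kB as well, and several genes stand in more than 1 list.

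**Figure D5:**
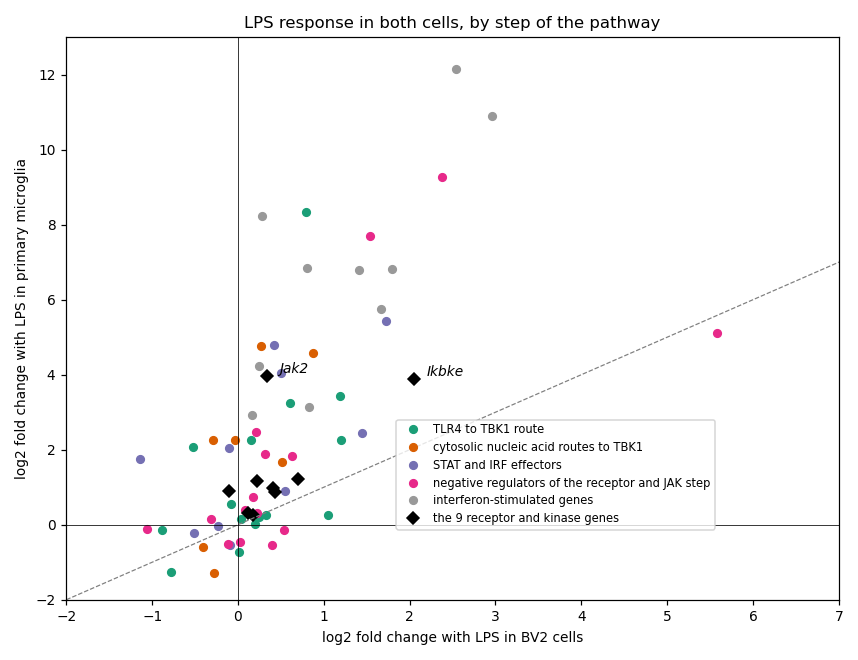
Log2 fold change with LPS in primary microglia (vertical) against that in BV2 cells (horizontal) for genes tested in both, with more than 3 reads in every group, coloured by step of the pathway (a gene of several steps is drawn once, in the first step of the legend), with black diamonds for 9 members and a dashed line where both would be equal. Jak2 lay high above the line, at 3.97 and 0.34, Ikbke lay above it at 3.88 and 2.05, and the interferon-stimulated gene Rsad2 lay highest, at 12.14 and 2.54.

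Genes with a pattern most like each of 5 members were found by Pearson's r of log2(CPM + 0.5) over the 10 libraries, among 11625 genes. The libraries form 4 separate groups, so r mostly describes a shared order of the groups and was given no p. Jak2 was most like Herc6 (0.9985), Cd47 (0.9968) and Stat2 (0.9961), and Ikbke was most like Tnf (0.9961), Icam1 (0.994) and Nfkbib (0.9925). Ifnar2 was most like 1600014C10Rik (0.9933), Otud1 (0.993) and Wsb2 (0.9917), and Ifngr1 was most like Emp3 (0.9557), Anxa4 (0.9532) and Bsg (0.9496). Ifnb1 was most like Il12b (0.9995), Tgtp2 (0.9994) and Il19 (0.999), a likeness that separates primary microglia with LPS from the rest.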

How the data were processed

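RNA-seq of primary microglia and BV2 cells was deposited as raw read counts per gene, 1 table per library, made by the authors with STAR 2.5.1 on mm10 after CASAVA 1.8.2 and Trimmomatic 0.33, per the submitters' processing notes; which gene annotation they counted against was not stated there. The reverse-strand count column was used, because the other strand held 0.682 to 2.21% of strand-assigned counts. Reads naming no gene stayed out of library sizes. Gene positions and transcript lengths are from GENCODE vM21 on mm10, and promoter letters from RefSeq. The members and the pathway lists were chosen with earlier results of these data known.

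Counts were scaled by TMM and tested with edgeR 4.0.16 (R 4.3.3) by quasi-likelihood F tests with robust dispersion, after a filter (minimum count 10, total 15). LPS was tested within each cell type. The cell comparisons and the difference of responses came from a fit of all 4 groups. The SE is the absolute log2 fold change divided by the square root of F. DESeq2 1.42.0 was an alternative. Fits were tested on simulated counts. Named are all members, at most the 3 called genes of lowest p per list and comparison, and Tlr4, Ticam1, Irf3, Stat2, Irf9, Socs1, Usp18 and Ifng; where such a gene had few reads its level or nothing is printed. Fold changes of genes with 3 or fewer reads in a group are not printed. Some items the rule covers are not reported here.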

Additional observations from a re-analysis of the deposited data

Results flagged for a closer look

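The LPS response differed between the cells for 4 genes by the test of the difference itself. The log2 fold change was larger in primary microglia than in BV2 cells by 0.98 for Ifnar1 (adjusted p = 0.00031), by 1.06 for Ifnar2 (adjusted p = 0.00134), by 3.68 for Jak2 (adjusted p = 1.25e-11) and by 1.89 for Ikbke (adjusted p = 2.4e-07), in edgeR's quasi-likelihood test over all genes. Astrocyte markers were present in the primary cultures and nearly absent from the line in both conditions, and their part in these differences was not tested. Groups of 2 and 3 libraries are too small for a test of single outlying libraries.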

How the results depend on the processing

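Over the alternatives (DESeq2 size factors, DESeq2's Wald test, no low-count filter, unstranded counts, 5 structural RNA genes left out, a replicate block, each library left out, other groups in the fit), 681 of the single-gene values kept their direction and call, 10 gained a call, 1 lost it and 4 changed sign. The count of genes called for LPS in BV2 cells was 1 in the reported fit, 2 with no low-count filter (Tyk2 added), 2 with the replicate block (Ifngr2 added, adjusted p = 0.049) and 1 to 3 with a library left out; it rests on 2 libraries a group. The counts of members called in the other 4 comparisons kept within 1.5 times, and the difference of responses called 4 in all 16 alternatives. Without BV2 replicate 2, Ifnar2 in BV2 cells was 0, and without BV2 LPS replicate 2 it was 0.10 (-0.30 to 0.10 over libraries left out). The Jak1 difference was -0.03 without primary microglia LPS replicate 1 (-0.03 to 0.21), and Ifngr2 in primary microglia against BV2 cells without LPS was 0.04 without BV2 replicate 1 (-0.19 to 0.04). These 4 were not called in any of these fits, and the cause was not tested. Over all genes, LPS in BV2 cells called 485, against 318 with DESeq2's Wald test and 800 without BV2 LPS replicate 1. Leaving out structural RNA genes moved the median difference of all genes from 0.04 to -0.07. Counts over the pathway lists moved as well: in BV2 cells the TLR4 route had 1 to 4 genes raised and 0 to 2 lowered (reported 3 and 0), the receptor-step regulators 2 to 5 raised (3), the interferon-stimulated genes 6 to 12 raised (9) and the effectors 0 to 1 lowered (1), and in primary microglia the receptor-step regulators had 0 to 3 lowered (2) and the other receptor chains 1 to 2 raised and 0 to 2 lowered (1 and 1). Replicate numbers correlated in their deviations by 0.195, -0.104 and 0.225 in primary microglia and 0.221 in BV2 cells, so they were not taken as pairs; apart from Ifngr2 in BV2 cells the replicate block changed no member's call. At 2.75 to 3.68 M counts a library, Ifnb1 in BV2 cells was at the limit of detection.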

Other observations

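Regulators that switch off TBK1 or IRF3 formed a further list, and its counts stand beside the same shares over all genes as those of the other lists. LPS in primary microglia raised 5 and lowered 1 of 11 tested (median log2 fold change 0.36), and in BV2 cells it raised 3 and lowered 0 of 11 (median 0.29). Tnfaip3, which encodes the ubiquitin-editing enzyme A20, rose by 5.52 ± 0.15 in primary microglia and by 3.01 ± 0.18 in BV2 cells, with a difference of 2.56 ± 0.24 (adjusted p = 5.93e-09). Atf3, a transcription factor that restrains Toll-like receptor responses, rose by 2.19 ± 0.12 in primary microglia and by 1.66 ± 0.20 in BV2 cells. Dtx4, a ubiquitin ligase that acts in the degradation of TBK1, fell by 0.80 on the log2 scale in primary microglia (SE 0.12, adjusted p = 2.46e-05) and had 0.62 ± 0.17 in BV2 cells (adjusted p = 0.0561); the difference was -1.38 ± 0.21 (adjusted p = 1.84e-05), the one gene of this list whose response was called lower in primary microglia.

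Among other receptor chains and Jak3, LPS in primary microglia raised Il10ra, a receptor chain for interleukin-10, by 1.45 ± 0.12 of 4 tested, and Jak3 fell by 0.86 (SE 0.32, adjusted p = 0.0389). In BV2 cells Il10ra rose by 1.17 ± 0.24 (adjusted p = 0.0126), the 1 called of 3.

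No member showed reads on the opposite strand beyond the share of its library: of 94 pairs of a gene and a library, 0 had a share whose 95% interval lay above that of the library.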
